A study of Mus musculus with 17 samples.

Results

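WT1 binding inside the 4 Hox gene clusters of the mouse was described from 5 deposited lists of WT1 peaks. In ChIP-seq, DNA bound by a protein is pulled down with an antibody and sequenced. A peak is a stretch with more such DNA than its surroundings, and its summit is the base where coverage is highest. A peak was taken as a member when its summit lay in one of 4 windows of the mm9 genome: chromosome 6 from 52090000 to 52220000 (HoxA), chromosome 11 from 96040000 to 96240000 (HoxB), chromosome 15 from 102740000 to 102880000 (HoxC) and chromosome 2 from 74490000 to 74610000 (HoxD). The windows span 590 kb and held 188 of the 107761 peaks of all lists.

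WT1 ChIP-seq was made from mice of 7 to 8 weeks, all labelled wildtype, that received either phosphate-buffered saline (PBS) or adriamycin (ADR, doxorubicin), a drug that injures podocytes, the epithelial cells of the kidney's filter. Isolated glomeruli of BALB/cJ mice, which hold podocytes together with other cells, gave 4 PBS and 4 ADR libraries, with 2 kidneys per immunoprecipitation. Podocytes purified from mTmG-Nphs2cre mice gave 3 PBS libraries and 4 ADR libraries, of which 2 are labelled day 9 and 2 day 14. In this strain a recombinase under the podocin gene promoter labels podocytes and changes a fluorescent reporter in them. The labels give no day for the glomeruli or for PBS podocytes. Strain and tissue preparation differ together between the glomerular and the podocyte libraries.

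The replicates of a group were deposited as 1 common list, which leaves no spread between replicates to set a difference against, and no test between groups was run. In podocytes the list lengths were 23402 peaks after PBS, 31949 at day 9 and 6694 at day 14, and in glomeruli 29082 after PBS and 16634 after ADR. Read totals were not used here, and the part of depth or list length in any difference between lists was not tested. No expression was measured in these libraries, so the labelled cell types were not checked against marker genes.

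Hox genes encode homeodomain transcription factors that give cells their position along the body axis. Within a cluster the genes lie side by side in the order in which they are used along that axis, from low-numbered anterior genes to high-numbered posterior ones, and genes of the same number in different clusters are related copies. In the kidney the group 11 genes Hoxa11, Hoxc11 and Hoxd11 are known for their joint part in starting the permanent kidney, and Hoxb7 is known for its activity in the ureteric bud. WT1, which binds DNA through zinc fingers, is required in podocytes throughout life, and its GC-rich binding sites resemble those of the EGR family.

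All 38 listed Hox genes were found in the RefSeq gene table of GRCm38.p6, which was used for their order and not for their positions. With rising coordinates the HoxA genes run Hoxa2, Hoxa3, Hoxa4, Hoxa5, Hoxa6, Hoxa7, Hoxa9, Hoxa10, Hoxa11 and Hoxa13. The other 3 clusters run the opposite way. HoxB runs Hoxb13, Hoxb9, Hoxb8, Hoxb7, Hoxb6, Hoxb5, Hoxb3, Hoxb4, Hoxb2 and Hoxb1, ordered by the first base of the longest span, in which Hoxb3 starts before Hoxb4. HoxC runs Hoxc13, Hoxc12, Hoxc11, Hoxc10, Hoxc9, Hoxc8, Hoxc6, Hoxc5 and Hoxc4. HoxD runs Hoxd13, Hoxd12, Hoxd11, Hoxd10, Hoxd9, Hoxd8, Hoxd3, Hoxd4 and Hoxd1, by the same ordering. Gene positions in mm9 were not used, so a peak is placed in a window by its coordinates and is not assigned to a gene.

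RefSeq promoters of GRCm38.p6, 300 bases each, were at hand for 22 of the 38 genes: 9 in HoxA, 3 in HoxB, 1 in HoxC and 9 in HoxD. The core WT1 motif GTGGGAG, searched on both strands, was found in 0 of the 22, against 11.0% of the 27025 genes of the table. A count of 0 among 22 genes gives a 95% Wilson interval for the share of 0 to 14.9%. The longer WT1 motif GCGTGGGNG was found in Hoxa2, a gene of the hindbrain and second pharyngeal arch, and in 2.18% of all genes. The EGR-type motif GCGGGGGCG was found in Hoxb8, and in 3.31% of all genes. These motifs share letters, and a match is a description of the sequence and not a bound site. The 2 sequences with a match are shown because they are the members whose promoter holds a WT1-type motif, and they were chosen after the matches were seen. The 250 bases before the start site are given on the gene's own strand, 5′ to 3′, with the match in capitals. The one in Hoxa2 is the reverse complement of the motif.

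Hoxa2, GRCm38.p6 chr6:52164832-52165081, minus strand: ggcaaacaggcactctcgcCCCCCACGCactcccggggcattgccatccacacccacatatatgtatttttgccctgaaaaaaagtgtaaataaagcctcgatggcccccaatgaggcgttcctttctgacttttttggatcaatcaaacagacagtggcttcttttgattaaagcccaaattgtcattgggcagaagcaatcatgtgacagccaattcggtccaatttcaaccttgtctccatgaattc

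Hoxb8, GRCm38.p6 chr11:96281655-96281904, plus strand: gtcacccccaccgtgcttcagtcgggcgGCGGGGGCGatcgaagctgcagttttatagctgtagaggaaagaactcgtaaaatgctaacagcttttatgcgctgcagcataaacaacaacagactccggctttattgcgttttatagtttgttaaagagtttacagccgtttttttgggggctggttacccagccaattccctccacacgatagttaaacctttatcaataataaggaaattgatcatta

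The match ends 222 bases before the start site of Hoxa2 and 213 bases before that of Hoxb8. These GRCm38 positions cannot be read against the mm9 peak positions given here. The bases under the peaks themselves were not read.

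WT1 peaks were dense in HoxA and HoxD, less so in HoxC and sparse in HoxB. Among glomeruli, HoxA held 21 peaks after PBS and 11 after ADR, and among podocytes 19 after PBS, 16 at day 9 and 2 at day 14. HoxD held 19, 9, 15, 13 and 5 in the same order. HoxC held 8, 4, 11, 11 and 1, and HoxB, the longest window, held 4, 7, 6, 5 and 1. Per 100 kb, the first 4 lists had 8.46 to 16.2 peaks in HoxA and 7.5 to 15.8 in HoxD, against 2.86 to 7.86 in HoxC and 2.0 to 3.5 in HoxB. HoxB was thus the least dense window in 3 of these 4 lists. In ADR glomeruli HoxC was lower still, at 2.86 per 100 kb against 3.5 in HoxB. Many of these peaks were weak. With a −log10 q of at least 10, HoxA held 9, 6, 13 and 13 peaks in these 4 lists and HoxD 10, 5, 12 and 12. HoxC then held 6, 1, 5 and 7, and HoxB 2, 2, 4 and 3. In PBS glomeruli HoxA thus fell from 21 to 9 peaks and HoxC from 8 to 6.

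**Figure D1:**
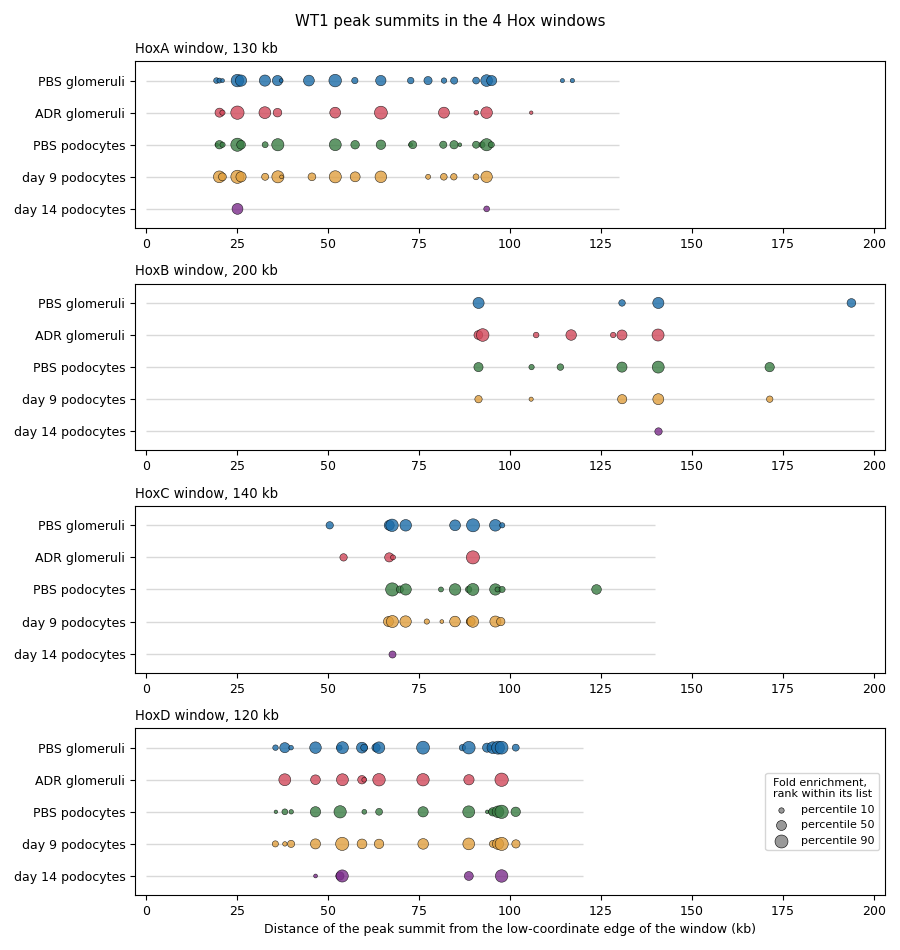
Each point is a WT1 peak summit, at its distance in kb from the low-coordinate edge of its window, in 1 row per list, and its size grows with the percentile of its fold enrichment within that list. Summits of different lists line up at many shared regions in each window, and the first 91.4 kb of the HoxB window is empty in all 5 rows.

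Against the density of its whole list, HoxA had 14.6 times as many peaks per kb in PBS and 13.4 times in ADR glomeruli. In podocytes the ratio was 16.5 after PBS, 10.2 at day 9 and 6.06 at day 14. The ratios for HoxD were 14.4, 11.9, 14.1, 8.94 and 16.4. In the same order, those for HoxC were 5.18, 4.53, 8.85, 6.48 and 2.81, and those for HoxB 1.81, 5.55, 3.38, 2.06 and 1.97. Among end-to-end windows of the same length along the genome, 0.0444% had as many peaks as HoxA or more in PBS and 0.331% in ADR glomeruli, and 0.0148%, 0.424% and 7.52% in podocytes after PBS, at day 9 and at day 14. For HoxD the shares were 0.0592%, 0.638%, 0.0592%, 0.834% and 0.524% in the same order. For HoxC they were 4.69%, 7.60%, 0.872%, 2.28% and 20.9%, and for HoxB 22.2%, 3.97%, 9.90%, 19.2% and 26.8%. At day 14, where HoxA held 2 peaks and HoxD 5, HoxD was thus matched by far fewer windows than the other 3 clusters. Of the 5 HoxD peaks, 2 were close neighbours, and with entries within 200 bp merged HoxD held 4. The share of windows was not recomputed for that count.

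Few peaks lay just outside HoxA and HoxD. The 130 kb beyond the high-coordinate edge of HoxA, on the side of Hoxa13, a gene of limb ends and genital tract, had 0 peaks in every list, and the 130 kb on the other side had 0 to 3. The 120 kb stretches beside HoxD had 1 to 5 peaks per list on either side. Beside HoxB and HoxC the counts were closer to those inside on 1 side. The 200 kb below HoxB, on the side of Hoxb13, held 4 peaks in PBS and 5 in ADR glomeruli, and 4, 6 and 2 in podocytes after PBS, at day 9 and at day 14. The 200 kb above it held 0 or 1. The 140 kb above the high-coordinate edge of HoxC, on the side of Hoxc4, held 12 peaks in PBS and 4 in ADR glomeruli, and 10, 10 and 3 in podocytes after PBS, at day 9 and at day 14, close to or above the number inside the window. Below the HoxC window, on the side of Hoxc13, a gene of hair and nails, the same length held 0 to 4 peaks.

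**Figure D2:**
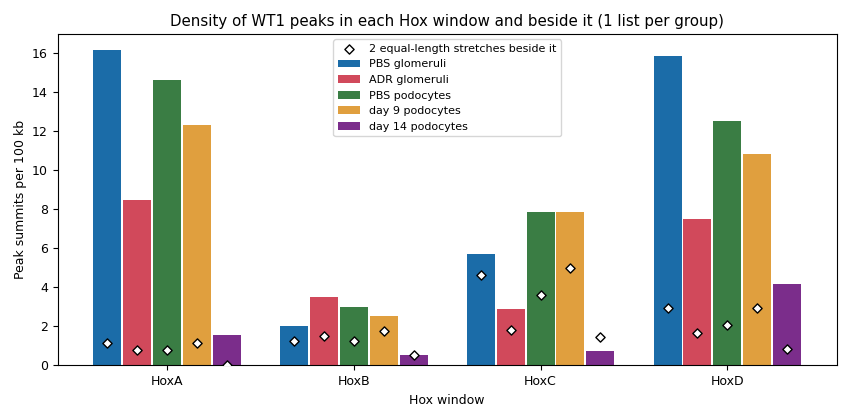
Bars give peak summits per 100 kb in each Hox window for the 5 lists, and diamonds the same for the 2 stretches of equal length beside the window, combined. HoxA and HoxD bars of PBS glomeruli stand at 16.2 and 15.8 per 100 kb, and those of HoxB and HoxC at 2.0 and 5.71.

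The Hox peaks ranged from weak to strong within their lists. The authors' fold enrichment is a ratio to the background of the same list, so it is ranked here within each list and not compared between lists. Fold enrichment of Hox peaks ran from 3.46 to 17.9 in PBS and 3.39 to 21.8 in ADR glomeruli. In podocytes it ran from 2.30 to 25.3 after PBS, 2.74 to 26.9 at day 9 and 3.0 to 10.9 at day 14. The median Hox peak stood at percentile 51.5 of its list in PBS and 54.7 in ADR glomeruli, and at 34.0, 44.8 and 32.5 in podocytes after PBS, at day 9 and at day 14. Ranked by the caller's p-value the medians were 47.8 and 53.9 in PBS and ADR glomeruli, and 45.4, 55.8 and 65.9 in the 3 podocyte lists, so that day 14 moved from the lowest to the highest. Within PBS glomeruli the HoxA peaks, the most numerous, had a median percentile of 22.6 and the 8 HoxC peaks one of 65.7. Peak widths had medians of 334, 290, 510, 460 and 446 bp in the order of the lists above, beside 334, 303, 472, 450 and 387 bp over the whole lists.

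Overlapping peaks of the 5 lists merged into 66 regions: 25 in HoxA, 11 in HoxB, 13 in HoxC and 17 in HoxD. Of these, 8 (12.1%, 95% Wilson interval 6.27 to 22.1) had a peak in all 5 lists, close to the 11.2% of all 41770 regions of the genome. They were 2 in HoxA, 1 in HoxB, 1 in HoxC and 4 in HoxD. The largest group of Hox regions, 15 (22.7%), had a peak in every list except day 14, as did 13.7% of all regions. Another 12 (18.2%) were in PBS glomeruli and in PBS and day 9 podocytes, against 13.3% of all regions.

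In HoxA the leading site had its summits at 52115133 to 52115168 on chromosome 6, 35 bp apart over the 5 lists. Its fold enrichment was 14.2 in PBS and 20.7 in ADR glomeruli, and 19.9, 25.9 and 7.35 in podocytes after PBS, at day 9 and at day 14. It was the strongest HoxA peak of every list except PBS glomeruli, where a peak with its summit at 52142015 was marginally higher at 14.4-fold. By the caller's p-value this site led in PBS glomeruli too, while in PBS podocytes the peak at 52183620 did. In ADR glomeruli it stood at percentile 95.5 of all peaks and in PBS and day 9 podocytes at 92.6 and 92.9. The other HoxA region in all 5 lists had summits at 52183620 to 52183638, within 18 bp, and fold enrichments of 11.0, 9.71, 11.1, 9.87 and 4.10 in the same order. These are the only HoxA peaks of the day 14 list, and they lie 68.5 kb apart there.

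HoxD held the site with the highest rank of any Hox region in ADR glomeruli, PBS podocytes and day 14, with summits at 74587737 to 74587767 on chromosome 2. Its fold enrichment was 16.5 in PBS and 21.8 in ADR glomeruli, and 25.3, 25.8 and 10.9 in podocytes after PBS, at day 9 and at day 14. These values ranked at percentiles 88.7, 96.3, 95.5, 92.9 and 83.4 of their lists. By the caller's p-value it led HoxD in all 5 lists. By fold enrichment a neighbour with its summit at 74586768 was the strongest HoxD peak in PBS glomeruli, at 17.3-fold. That neighbour was also present in PBS and day 9 podocytes and had no peak of its own in ADR glomeruli or at day 14.

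At day 9 the strongest Hox peak by fold enrichment was another HoxD site, with its summit at 74543945 and 26.9-fold enrichment. The peak there was 1635 bp long, and PBS podocytes had one of 1683 bp with its summit at 74543372 and 11.9-fold enrichment. The strongest summits of the 5 lists in this region spread over 638 bp. The region held 2 separate peaks in the day 14 list, at 74543303 and 74543947, and 2 in PBS glomeruli, at 74543170 and 74544009. The fold enrichment of the stronger peak was 9.63 at day 14 and 11.9 in PBS glomeruli, and the single ADR glomerular peak, at 74544010, had 10.5. The other HoxD regions in all 5 lists had summits at 74536598 to 74536624 and at 74578712 to 74578771. The first had fold enrichments of 10.5, 7.03, 6.83, 6.98 and 3.0 and the second 14.7, 7.63, 10.2, 11.0 and 5.70, from PBS glomeruli to day 14. All 17 HoxD regions had a peak in PBS glomeruli, and 15 of them one in PBS podocytes, 13 one at day 9, 8 one in ADR glomeruli and 4 one at day 14.

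In HoxC the leading site by fold enrichment differed between the glomerular lists and the PBS and day 9 podocyte lists. In both glomerular lists it had its summit near 102829890 on chromosome 15, with 17.9-fold enrichment in PBS glomeruli and 17.6-fold in ADR glomeruli. In podocytes the leading site lay at lower coordinates, at 102807687 after PBS (21.7-fold) and 102807735 at day 9 (12.2-fold). The day 14 list had its only HoxC peak there, at 102807660 (4.76-fold), so no other peak could lead. At day 9 the leader rested on the measure. The peak at 102829854 had 10.1-fold enrichment but a −log10 q of 76.3, against 55.5 at 102807735. By the caller's p or q the day 9 leader was thus the glomerular site. The site near 102829890 was at percentile 91.1 in PBS glomeruli and 92.7 in ADR glomeruli, against 76.1 in PBS podocytes and 69.8 at day 9, and it had no peak at day 14. The region around 102807687 was the only one of HoxC in all 5 lists, and its strongest peak was at percentile 82.5, 41.9, 93.9, 76.7 and 22.3 from PBS glomeruli to day 14. It was 1 peak of 1880 bp in PBS podocytes, the longest Hox peak of any list, and 2 separate peaks in both glomerular lists and at day 9. In ADR glomeruli the stronger of the 2 was not the one near 102807687 but one at 102806868. The difference in rank between the 2 kinds of preparation was not tested.

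In HoxB the site in all 5 lists had summits at 96180735 to 96180812 on chromosome 11, with fold enrichments of 9.49 in PBS and 10.9 in ADR glomeruli, and 10.4, 8.5 and 4.91 in podocytes after PBS, at day 9 and at day 14. It was the strongest HoxB peak by fold enrichment of every list except ADR glomeruli. By the caller's p-value it tied in PBS glomeruli with a peak at 96131419, both with a −log10 p of 21.9. In ADR glomeruli a peak with its summit at 96132543 led at 13.3-fold (percentile 85.2), and no other list had a peak overlapping it. A separate peak nearby, with summits at 96131354 to 96131419, was in every list except day 14. This peak was chosen for mention after its value was seen. Of the 11 HoxB regions, 4 were in ADR glomeruli alone, while HoxA had 1 such region, HoxC 1 and HoxD 0. Over the 4 clusters the 6 regions in ADR glomeruli alone were 9.09% of Hox regions, against 3.37% of all regions. This was not particular to ADR glomeruli: regions in PBS podocytes alone were also 6 (9.09%), against 3.91% of all regions. Regions in PBS glomeruli alone were 10.6% against 11.0%, and those in day 9 podocytes alone 3.03% against 16.1%.

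**Figure D3:**
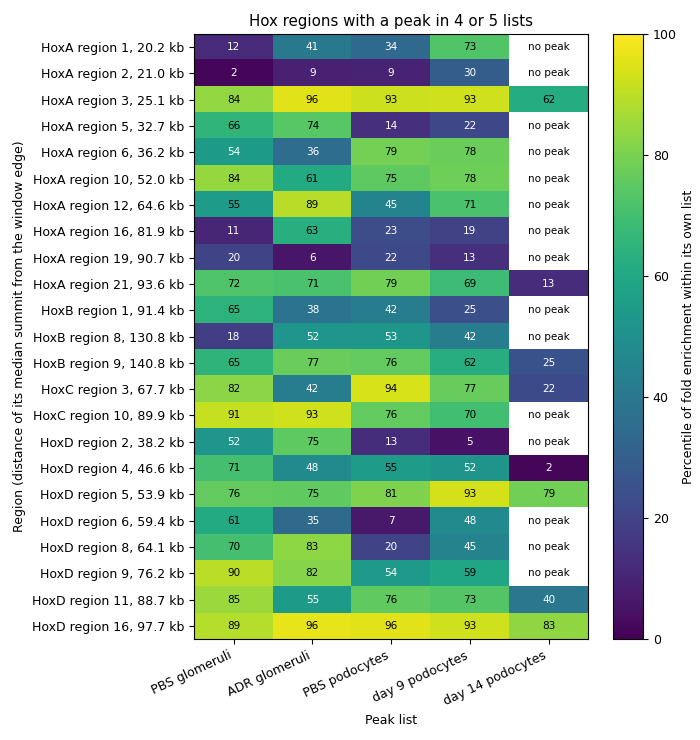
Rows are the 23 Hox regions with a peak in 4 or 5 lists, columns are the lists, and the colour and number give the percentile of the region's strongest peak by fold enrichment within its own list, with white where the list had no peak. All 15 regions in 4 lists lack the day 14 peak, and HoxD region 16 has the highest percentile at day 14, 83.4.

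In isolated glomeruli, ADR was set against PBS to follow WT1 binding under injury. The windows held 31 ADR peaks against 52 PBS peaks, 0.596 times as many, near the 0.572 times of the whole lists. Of the ADR Hox peaks, 25 of 31 (80.6%, interval 63.7 to 90.8) overlapped a PBS peak, against 82.6% of the whole list. Of the PBS Hox peaks, 25 of 52 (48.1%, 35.1 to 61.3) overlapped an ADR peak, against 46.5% of the whole list. HoxB differed in direction, with 7 ADR against 4 PBS peaks, while HoxA had 11 against 21, HoxC 4 against 8 and HoxD 9 against 19. With a −log10 q of at least 10 HoxB had 2 peaks in either list. With all lists trimmed to 6694 peaks by caller p-value the windows held 13 ADR and 11 PBS peaks. The direction in HoxA then turned, with 5 ADR against 3 PBS peaks, and HoxB had 2 against 0, HoxC 1 against 2 and HoxD 5 against 6.

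Day 9 podocytes were set against PBS podocytes. The day 9 list was 1.37 times as long as the PBS list, yet the Hox windows held 45 day 9 against 51 PBS peaks, 0.882 times as many. HoxA had 16 against 19 peaks, HoxB 5 against 6, HoxC 11 against 11 and HoxD 13 against 15. Of the day 9 Hox peaks, 41 of 45 (91.1%, 79.3 to 96.5) overlapped a PBS peak, against 64.0% of the whole day 9 list. Of the PBS Hox peaks, 41 of 51 (80.4%, 67.5 to 89.0) overlapped a day 9 peak, against 87.0% of the whole list. Regions in day 9 podocytes alone were 2 of the 66 Hox regions (3.03%) and 16.1% of all regions. Of the 4 day 9 Hox peaks without a PBS podocyte peak, 3 lay in HoxA and 1 in HoxC. With a −log10 q of at least 10 the Hox counts were 35 at day 9 and 34 in PBS podocytes. The whole lists then held 22272 day 9 and 16254 PBS podocyte peaks, so the day 9 list was still the longer by far.

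Day 14 had 9 Hox peaks, 0.176 times the PBS podocyte number and 0.200 times the day 9 number, beside 0.286 and 0.210 times for the whole lists. All 9 overlapped a PBS podocyte peak and a day 9 peak (100%, 70.1 to 100), against 96.1% and 99.7% of the day 14 list. In the other direction, 8 of 51 PBS Hox peaks (15.7%, 8.17 to 28.0) and 8 of 45 day 9 Hox peaks (17.8%, 9.29 to 31.3) overlapped a day 14 peak, against 27.0% and 20.5% of the whole lists. HoxD had the most, with 4 of its 15 PBS peaks overlapped, a share near the 27.0% of the whole PBS list. In HoxA 2 of 19, in HoxB 1 of 6 and in HoxC 1 of 11 PBS peaks overlapped a day 14 peak. The podocyte comparisons share the PBS and day 9 lists and are given side by side. With all lists trimmed to the length of the day 14 list, the windows held 13 PBS, 10 day 9 and 9 day 14 podocyte peaks.

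PBS podocytes and PBS glomeruli shared most of their Hox peaks. Of 51 podocyte peaks 40 (78.4%, 65.4 to 87.5) overlapped a glomerular peak, against 80.7% of the whole list, and 43 of 52 glomerular peaks (82.7%, 70.3 to 90.6) had a podocyte match, against 66.4% of the whole list. In HoxD 15 of 15 podocyte peaks and in HoxA 16 of 19 had a glomerular match, against 6 of 11 in HoxC and 3 of 6 in HoxB. The intervals cover counting error only, and peaks of 1 cluster are neighbours and not independent.

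**Figure D4:**
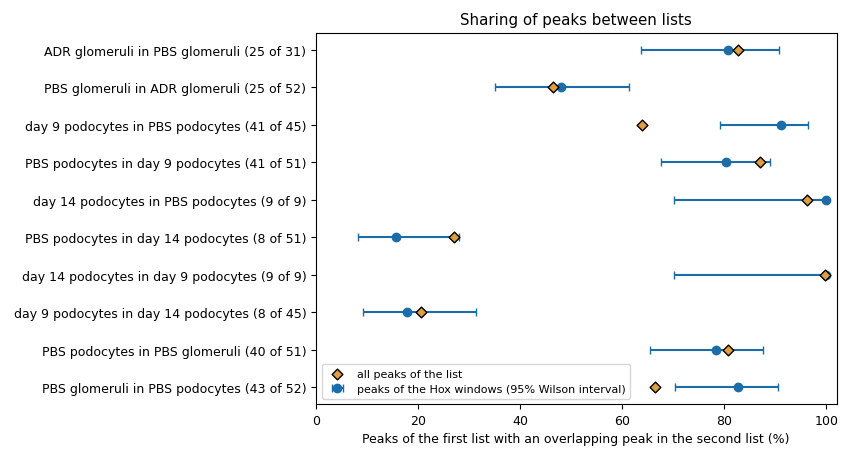
Circles give the share of Hox peaks of the first list that overlap a peak of the second, with 95% Wilson intervals, and diamonds the same share over the whole first list. The circle stands at 91.1% and the diamond at 64.0% for day 9 in PBS podocytes, and at 82.7% and 66.4% for PBS glomeruli in PBS podocytes.

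Inside the clusters WT1 summits followed each other closely. The median distance between neighbouring summits was 3995 bp in PBS glomeruli (95% binomial interval of the median 2553 to 6038, 48 distances), 8891 bp in ADR glomeruli (4059 to 12263, 27), 3875 bp in PBS podocytes (1755 to 6613, 47) and 4319 bp at day 9 (3506 to 6416, 41). At day 14 only 5 distances existed, from 644 to 68470 bp. Over the whole lists the medians were 18310, 33003, 24208 and 16053 bp, and 93044 bp at day 14. A Hox distance needed both summits inside 1 window and so could not exceed the window length of 120 to 200 kb. Whole-list distances had no such limit. This matters most at day 14, where HoxB and HoxC held 1 peak each and gave no distance, so no conclusion is drawn for that list. Distances of at most 5 kb made up 58.3% of Hox distances in PBS and 33.3% in ADR glomeruli, and 57.4% in PBS and 53.7% in day 9 podocytes, against 25.5%, 19.4%, 22.1% and 27.7% of the whole lists.

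Spacing differed among the clusters. In PBS glomeruli the median distance was 2153 bp in HoxD, 4243 bp in HoxA, 4929 bp in HoxC and 39416 bp in HoxB, the last from 3 distances. In PBS podocytes it was 2916 bp in HoxC, 3221 bp in HoxA, 3969 bp in HoxD and 14588 bp in HoxB. The closest pair of summits in any list was 432 bp apart, in HoxD of PBS podocytes. HoxB had 0 distances of at most 5 kb in PBS glomeruli, PBS podocytes and day 9, and 2 of 6 in ADR glomeruli.

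**Figure D5:**
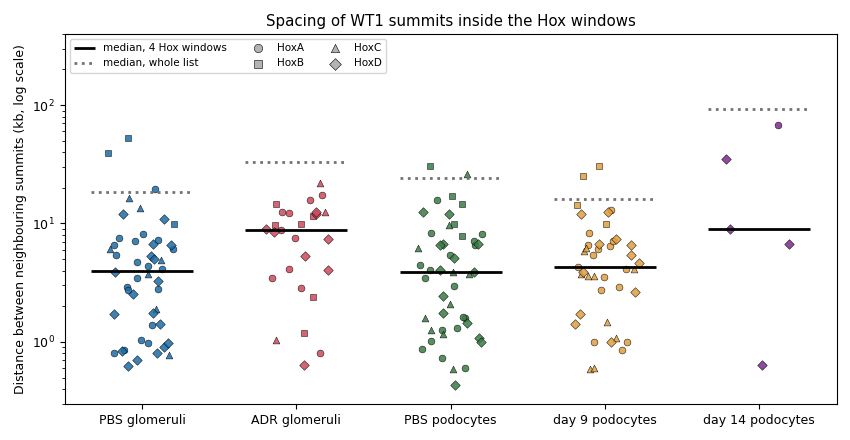
Points are distances in kb, on a log axis, between neighbouring summits of 1 list inside a Hox window, with a marker for each cluster, a solid bar at the median of the Hox distances and a dotted bar at the median of the whole list. The solid bar lies below the dotted bar in all 5 lists, at medians of 3995 against 18310 bp in PBS glomeruli. Hox distances cannot exceed the window length, while whole-list distances have no such limit, which weighs most at day 14.

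Each window also had a stretch without a summit in any list at its low-coordinate edge, whose length depends on where the window was drawn. For scale, the whole-list median distance between neighbouring summits was 16053 to 33003 bp in the lists other than day 14, and 93044 bp at day 14. In HoxB the first 91.4 kb from the low-coordinate edge, on the side of Hoxb13, a gene of the prostate and hindgut, held 0 summits in any list, and at day 14 the empty stretch reached 141 kb. In HoxC the first 50.5 kb, on the side of Hoxc13, was empty in all lists, and in HoxD the first 35.6 kb, on the side of Hoxd13, a gene of the digits. In HoxA the longest stretch without a summit in any list was 19.4 kb at the low-coordinate edge, on the side of Hoxa2. Within single lists the longest empty stretch of HoxA was 19.4 kb in PBS and 24.1 kb in ADR glomeruli, and 35.1, 36.4 and 68.5 kb in podocytes after PBS, at day 9 and at day 14. In the 2 podocyte lists other than day 14 and in ADR glomeruli that stretch reached the high-coordinate edge, and PBS glomeruli had 2 weak peaks there, at 52204452 (3.77-fold) and 52207190 (3.88-fold).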

How the data were processed

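The submitters' processing notes name Bowtie 0.12.7, MACS2 and the mm9 build. Not given in the sources used here are the cutoff, the control, duplicate handling and the pooling of replicates. For each of the 5 immunoprecipitation groups the authors deposited 1 narrowPeak list, and no list of the 2 input libraries was analysed here. The fold enrichment of each peak is the authors' ratio to local background and was ranked within its list. The −log10 p and −log10 q are the authors' deposited values and served for trimming and filtering. The integer score deposited by the authors equals 10 times the −log10 q within 1 and was not used. Smallest −log10 q values ran from 1.31 to 2.25.

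Summits were start plus offset, and coordinates are 1-based. Peaks matched when they overlapped by at least 1 bp, and regions were unions of such peaks. Densities divide by the span up to the last peak end of each chromosome. Intervals are 95% Wilson intervals, or binomial order-statistic intervals for medians. A percentile is the rank of fold enrichment in its list. The windows, genes and comparisons were chosen with earlier results of these data known. Named were regions in all 5 lists, the strongest peak of each cluster and list, single-list regions among the strongest 10% of their list (0 were found) and the widest empty stretches. Promoters were to be shown for the gene of each cluster with most GTGGGAG matches. With 0 matches this fell to the GC content alone (Hoxa13, Hoxb1, Hoxc4 and Hoxd13), and those are not shown. Alternatives changed the q threshold, list length, window edges, overlap rule and ranking. The code was tested on simulated lists. Scripts ran under scipy 1.17.1, pandas 2.3.3, numpy 2.4.6 and Python 3.11.15, with matplotlib 3.10.9 for plots.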

Additional observations from a re-analysis of the deposited data

Results flagged for a closer look

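The number of HoxB peaks after ADR moved in opposite directions in the 2 preparations, at 1.75 times the PBS number in glomeruli (7 against 4 peaks) and 0.833 times in day 9 podocytes (5 against 6). The other 3 clusters had fewer peaks after ADR in glomeruli, and at day 9 HoxA and HoxD had fewer and HoxC the same number. With 1 list per group the difference was not tested. It rests on few peaks: with a −log10 q of at least 10 HoxB had 2 peaks in both glomerular lists, 4 in PBS podocytes and 3 at day 9. With all lists trimmed to 6694 peaks HoxB had 2 ADR and 0 PBS glomerular peaks, and HoxA also had more ADR than PBS peaks there, 5 against 3.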

How the results depend on the processing

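No paired analysis was possible because the replicates of a group share 1 common list. Nor could single replicates be removed. Of 218 values recomputed under an alternative, 170 stayed within 1.5 times (counts) or inside the interval of the value reported, and 48 did not, 28 of them counts of single clusters. The 170 include the day 14 counts after trimming to the day 14 length, which could not change. List length mattered most. With a −log10 q of at least 10 the Hox counts were 27 in PBS glomeruli and 14 in ADR glomeruli, the regions numbered 41, of which 4 were in all 5 lists and 11 in 1 list, the median spacing was 6577 bp in PBS and 14201 bp in ADR glomeruli, and 96.3% of PBS glomerular Hox peaks had a PBS podocyte peak. With every list trimmed to 6694 peaks the Hox counts were 11 in PBS and 13 in ADR glomeruli, and 13 in PBS and 10 in day 9 podocytes. With the longer list of each pair trimmed to the shorter, the shares with an overlapping peak were 61.3% for ADR in PBS glomeruli, 70.4% for PBS in ADR glomeruli, 97.2% for day 9 in PBS podocytes, 61.5% for PBS podocytes in day 14, 70.0% for day 9 in day 14 and 64.7% for PBS podocytes in PBS glomeruli. With summits within 200 bp, 77.8% of day 9 Hox peaks had a PBS podocyte match. The shares over the whole lists were not recomputed under these alternatives. These Hox shares therefore cannot be set against the lists as a whole. Ranked by caller p-value, the median Hox percentile was 45.4, 55.8 and 65.9 in podocytes after PBS, at day 9 and at day 14, the last from 9 peaks and inside its wide interval of 12.8 to 78.6. Beyond fewer peaks entering, the cause of these shifts was not tested. Moving the window edges, merging entries within 200 bp and the 50% overlap moved no total, share or spacing out of these limits, nor did the other motifs.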

Other observations

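Spearman's rho of fold enrichment was 0.837 over the 39 Hox regions with a peak in both PBS and day 9 podocytes, beside 0.812 over all 20043 such regions of the genome. It was 0.724 over 39 regions of PBS podocytes and PBS glomeruli (0.608 over 18612) and 0.572 over 23 regions of ADR and PBS glomeruli (0.512 over 13232). Over 8 Hox regions it was 0.595 for day 14 and PBS podocytes (0.725 over 6308) and 0.810 for day 14 and day 9 (0.813 over 6547), so that the Hox value was above that of all regions in the 3 pairs without day 14 and not in the 2 with it. These are descriptions across sites of 4 loci that share their 2 lists, and no test was made.

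Of the 66 Hox regions, 21 (31.8%) were found in a single list, near the 34.5% of all regions of the genome. They had median percentiles of 24.9 for the 7 in PBS glomeruli, 18.2 for the 6 in ADR glomeruli, 20.4 for the 6 in PBS podocytes and 18.8 for the 2 at day 9. Their highest percentiles were 61.1 in PBS glomeruli, 85.2 in ADR glomeruli (the HoxB peak at 96132543), 47.3 in PBS podocytes and 28.2 at day 9. The strongest of them in PBS glomeruli had its summit at 52134796 in HoxA (8.88-fold). The strongest at day 9 lay near it, with its summit at 52135626 (5.06-fold), and the 2 peaks did not overlap. The 24 promoters of the 22 Hox genes had a median GC content of 57.7%, from 39.7% to 81.0%, beside 52.7% over all promoters of the table.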
